A study of Mus musculus with 109 samples.

Results

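The Odz3 to Aga gene desert is the 7-Mb interval chr8:49000001-56000000 of the mouse mm9 build. All HindIII sites of the deposited contact table inside it were taken, whatever their values, which gave 2337 sites of 39480 on chromosome 8 and 823352 in the whole table. The assay, 4C-seq (circular chromosome conformation capture read by sequencing), counts reads at HindIII sites that were ligated to 1 chosen fragment, the bait, in crosslinked nuclei. It was run here in C127 cells, a mouse mammary tumour line, to ask when domains and long-range contacts return in early G1 and how that relates to replication timing. Cultures were arrested in mitosis with nocodazole for 4 h, then released into G1 for 30 min, 1, 2, 3 or 4 h. G2 cells were collected after a 15 h release and G0 cells after 5 days without serum. All groups are the same cell line. The desert was read from 6 baits of chromosome 8, named by their position in Mb. B7, B44, B118, B26 and B87 lie outside it and B53 lies inside. Each bait had 11 libraries (10 for B87 and B118, which had none labelled mitosis).

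Gene deserts are long stretches with few or no genes, usually rich in A and T. In many cell types such regions replicate late, lie near the nuclear lamina and contact other gene-poor chromatin more than gene-dense chromatin, whereas GC-rich, gene-dense regions replicate early and contact each other. Mitotic chromosomes lose most of this arrangement, and it is built again in early G1.

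The interval had 37.9% GC against 42.4% for chromosome 8, and 10 of the chromosome's 1082 protein-coding genes. Of 18 windows of 7 Mb along chromosome 8 it had the lowest GC content and the fewest protein-coding genes, but ranked 5th in HindIII sites (334 per Mb against 307 for the chromosome), so that its low gene content did not come with fewer places to be captured. Genes sat at both ends. On the left were Wwc2, which encodes a scaffold protein with WW and C2 domains, Dctd, a deoxycytidylate deaminase of nucleotide metabolism, and Odz3 (chr8:49313036-49760044, 447 kb), a teneurin, a transmembrane protein of neuronal wiring. 4930555F03Rik followed. On the right were Aga (chr8:54597080-54608776), a lysosomal glycosylasparaginase, Neil3, a DNA glycosylase of base excision repair, Vegfc, a growth factor of lymphatic vessels, Asb5, Spata4 and Wdr17. Between 4930555F03Rik and Aga lay 3.99 Mb with no protein-coding gene (chr8:50606450-54597079), in which the annotation held only small RNA genes and 1 pseudogene.

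The baits are shown by the primer sequence that ends on their HindIII site, in capitals, since the first base of that sequence sets each distance from a bait below. All 6 are read on the plus strand of mm9.
B7, chr8:7223950-7223970: tattaggacagacagAAGCTT
B44, chr8:44417335-44417354: ggtcatccctttagAAGCTT
B53, chr8:52961959-52961978: aaacatgtttggccAAGCTT
B118, chr8:118459309-118459328: cctcatacagctggAAGCTT
B26, chr8:26774313-26774332: ttgagtttgacgccAAGCTT
B87, chr8:87434064-87434081: gggcggagatggAAGCTT
B53 lay in the gene-free stretch, 2.36 Mb from 4930555F03Rik and 1.64 Mb from Aga. The GC content of the 500 kb around a bait was 36.0% at B53, 37.3% at B7, 40.6% at B44, 43.4% at B118, 44.9% at B26 and 49.6% at B87. B53 and B7 had 0 protein-coding genes within 500 kb, against 1 for B118, 8 for B44, 19 for B26 and 38 for B87. The outer baits were 4.58 Mb (B44), 22.2 Mb (B26), 31.4 Mb (B87), 41.8 Mb (B7) and 62.5 Mb (B118) from the nearer edge of the desert. B26, B87 and B118, the outside baits above the 42.4% GC of chromosome 8, are called the GC-rich baits below. The name refers to GC content only. B118 was close to the chromosome's value and had fewer genes within 500 kb than B44.

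The desert was met at many of its sites (captured sites, with 1 read or more). Of the 2337 sites, 382 were captured in none of the 53 libraries of the 5 outside baits, the median site was captured in 17, and the most in 35. With B53 included, 292 sites were never captured. The site with most reads held 0.321% to 26.6% of the desert reads of an outside library. The 3 sites captured in most outside libraries are shown with 30 bases on each side (plus strand, HindIII site in capitals), because they are where the desert was met most often from afar.
chr8:49517942-49518007: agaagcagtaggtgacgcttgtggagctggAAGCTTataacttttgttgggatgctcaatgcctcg
chr8:54583747-54583812: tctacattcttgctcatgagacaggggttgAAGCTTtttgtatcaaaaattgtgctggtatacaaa
chr8:49583808-49583873: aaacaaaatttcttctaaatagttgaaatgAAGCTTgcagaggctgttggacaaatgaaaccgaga
The first and the third lie in introns of Odz3 and were captured in 35 and 33 of the 53 libraries. The other lies between genes, 13303 bp from Aga, and was captured in 34. The first and the third were thus in a gene at the left end of the interval. The second lay within the gene-free stretch, near its right end beside Aga. From B53, 422 sites were captured in all 11 libraries. The 3 such sites with most reads beyond 500 kb of B53 lay between genes in the gene-free stretch.
chr8:53564208-53564273: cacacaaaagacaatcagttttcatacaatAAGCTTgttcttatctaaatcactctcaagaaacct
chr8:53724968-53725033: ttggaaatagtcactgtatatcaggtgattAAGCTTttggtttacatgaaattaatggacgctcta
chr8:53638528-53638593: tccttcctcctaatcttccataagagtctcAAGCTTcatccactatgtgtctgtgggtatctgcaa
They were 0.60, 0.76 and 0.68 Mb from B53, carried 31328, 27815 and 21072 B53 reads in sum over its libraries, and were captured in 30, 25 and 24 of the 53 outside libraries.

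The 70 table columns used held 266006 to 8826711 reads (median 2985117), and all 70 had more reads beside their labelled bait than beside any other chromosome 8 bait. Libraries differed widely in complexity, with 687 to 23953 captured sites on chromosome 8 beyond 2 Mb of the bait. At each of the 6 baits the fewest were in a library labelled 3 h or 4 h, and these libraries had 687 to 3150. The library labelled 1 h replicate 2 and the first technical replicate labelled 2 h shared 64.9% to 96.7% of the smaller one's captured sites on other chromosomes, whereas the 2 technical replicates labelled 2 h shared 8.57% to 27.0%. Some G0 libraries shared sites with the same libraries, at 81.5% to 83.6% for G0 replicate 2 of B118, 61.3% to 61.6% for G0 replicate 1 of B44, 50.1% to 50.7% for G0 replicate 1 of B53 and 26.8% to 29.4% for G0 replicate 1 of B26. Relative to the number shared by chance, these were 14.7 to 15.1 times for B118 and 11.4 to 11.7 times for B53. They were 5.66 to 5.87 times for B26 and 4.01 to 4.03 times for B44. The other G0 libraries stood at 1.67 to 3.90 times chance. The labels are used as given, and values without 1 h replicate 2 and 2 h are named where they end a call and in the comparisons of stages. Labels do not say that libraries of different baits came from separate cultures, and p-values measure the spread between libraries only.

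Contact with the desert is given as log2 of captured sites observed over those expected at the same distance from the bait, fitted in each library on the rest of chromosome 8 beyond 2 Mb. A value of 0 is the number expected by distance and a value of 1 is double that number. B7, the gene-poor bait, captured more desert sites than expected and B87, the bait with most genes, captured fewer, with the other baits between them. B7 captured 47 to 1191 desert sites per library (median 239), and its log2 observed over expected ran from -0.19 to 0.69 with a median of 0.42 and a mean of 0.31 ± 0.33 (SD, n = 11). It was above 0 in 8 of 11 libraries, the exceptions being G2 and both G0 libraries. With reads in place of captured sites it was above 0 in 10 of 11, with 0.18 in G2 and -0.0062 and 0.11 in G0. B44, the nearest bait, captured 216 to 1666 desert sites and stayed near expectation, from -0.28 to 0.29 with a median of -0.02 and a mean of -0.02 ± 0.14 (SD, n = 11). B118 ran from -1.33 to -0.07 with a median of -0.24 and a mean of -0.36 ± 0.38 (SD, n = 10), below 0 in all 10 libraries. B26 ran from -1.28 to 0.30 with a median of -0.15 and a mean of -0.20 ± 0.54 (SD, n = 11), above 0 in 5 of 11. B87 captured 13 to 1068 desert sites and ran from -2.26 to -0.40 with a median of -0.90 and a mean of -1.11 ± 0.68 (SD, n = 10), below 0 in all 10 libraries. Its lowest and highest libraries both lay below the lowest B7 library, so B7 and B87 did not overlap. In linear terms the mean values were 1.24 times the expected number for B7 and 0.46 times for B87.

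**Figure D1:**
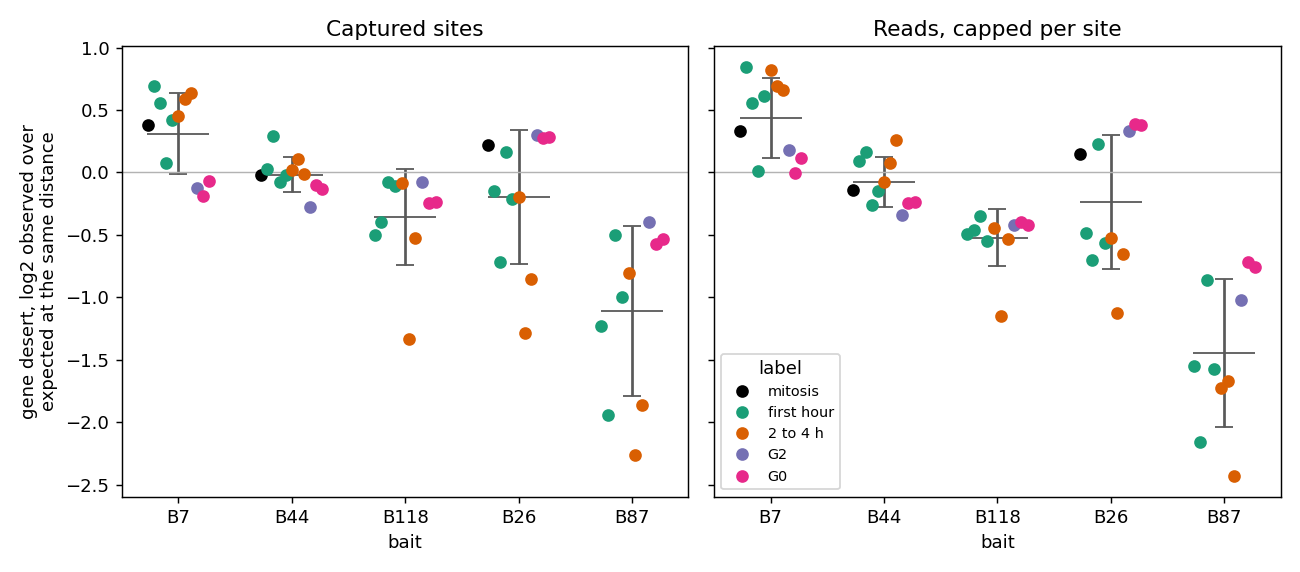
Each point is 1 library, coloured by its label, and shows log2 observed over expected contact of the gene desert from 5 outside baits, by captured sites (left) and by reads capped per site (right). Bars are the mean ± SD over 10 or 11 libraries. B7 libraries sit mostly above 0 (mean 0.31 by captured sites) and all 10 B87 libraries below it (mean -1.11).

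Of the 10 pairs of outside baits, 8 differed at an adjusted p under 0.05 (two-sided permutation test with 100000 resamples, Benjamini-Hochberg over the 10 pairs). The test treated libraries of all labels, from mitosis to G0, as replicates of their bait. It does not show whether a difference held at each stage. The widest difference was B7 minus B87, 1.42 (adjusted p = 5e-05, from 1e-05, the smallest p the resamples can give; B7 was higher in all 10 shared labels). B44 minus B87 was 1.09 (adjusted p = 5e-05). B7 exceeded B118 by 0.67 (adjusted p = 0.000867), B26 by 0.51 (adjusted p = 0.0162) and B44 by 0.33 (adjusted p = 0.0113). B7 was higher than B118 in 9 of 10 shared labels and than B44 in 10 of 11, but than B26 in only 7 of 11. B26 was the higher in 1 h replicate 1 (0.17 against 0.07), G2 (0.30 against -0.12) and both G0 libraries (0.27 against -0.19 and 0.29 against -0.07). B44 exceeded B118 by 0.34 (adjusted p = 0.0041), and both B26 (0.91, adjusted p = 0.00624) and B118 (0.75, adjusted p = 0.0112) exceeded B87. B44 minus B26 was 0.18 (adjusted p = 0.337; SD of the differences by label 0.65) and B26 minus B118 was 0.16 (adjusted p = 0.446; SD 0.33), and neither difference exceeded the spread between libraries. With reads in place of captured sites the means were 0.44 for B7, -0.08 for B44, -0.52 for B118, -0.24 for B26 and -1.45 for B87, and the same 8 pairs passed. B7 minus B26 missed the threshold without the library labelled 3 h (0.37, adjusted p = 0.0504) or 4 h (0.41, adjusted p = 0.0518), and it missed without 1 h replicate 2 and 2 h (0.48, adjusted p = 0.0722), as did B7 minus B44 (0.30, adjusted p = 0.0511).

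The desert was then set beside the other windows of 7 Mb, with the desert included in the fit of the expected. From B7 it ranked 1st of 16 windows by captured sites and by reads, at a mean of 0.26 ± 0.29 (SD, n = 11). From B87 it ranked 16th of 16 on both measures, at -0.98 ± 0.63 (SD, n = 10), and from B118 16th by captured sites and 15th by reads, at -0.32 ± 0.35 (SD, n = 10). From B26 it ranked 12th (-0.19 ± 0.48, SD, n = 11), where the lowest window was chr8:98000001-105000000, with a mean of -0.82, 38.1% GC and 15 protein-coding genes. From B44 it ranked 8th by captured sites and 7th by reads. The window next to the desert on the right, chr8:56000001-63000000, with 38.3% GC and 20 protein-coding genes, ranked 15th from both B87 (-0.78) and B118 (-0.27). These ranks are descriptions of means and were not tested.

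**Figure D2:**
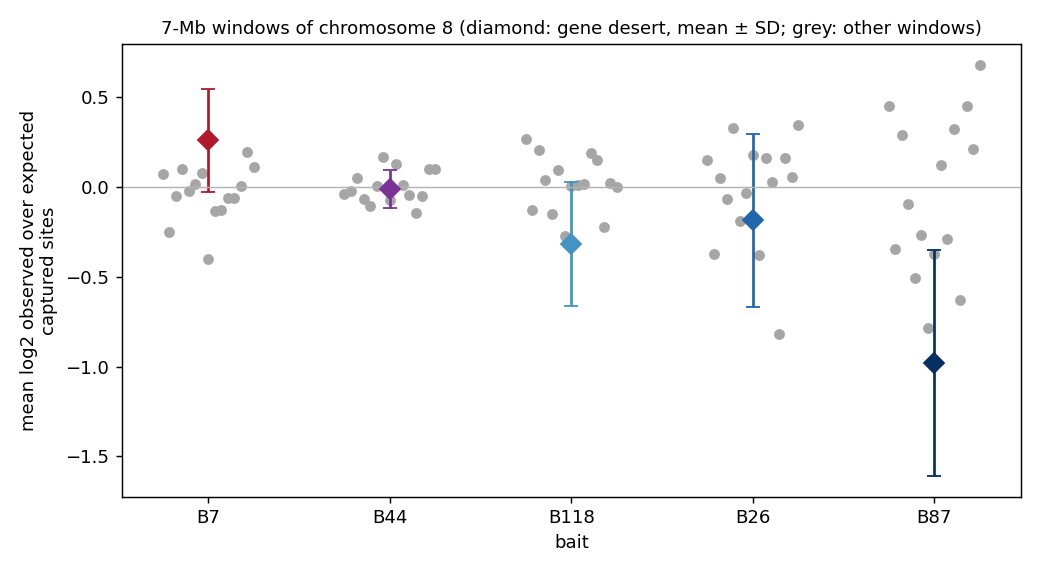
Mean log2 observed over expected captured sites of 16 windows of 7 Mb of chromosome 8 per bait, with the gene desert as a diamond (± SD over 10 or 11 libraries) and the other windows in grey. The diamond is the highest point for B7 (0.26) and the lowest for B118 (-0.32) and B87 (-0.98).

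Within the interval, the ends that hold genes were contacted more than the gene-free centre. The 14 bins of 500 kb fell into 7 that overlapped a protein-coding gene (1188 sites, mean GC 39.4%) and 7 that did not (1149 sites, mean GC 36.3%). GC content and position toward the edges moved with gene content, and the 3 cannot be told apart in this interval. From B87 the log2 observed over expected was -0.81 ± 0.57 in gene-bearing bins and -1.52 ± 0.95 in gene-free bins (SD, n = 10), a difference of 0.71 that was above 0 in 10 of 10 libraries (adjusted p = 0.00244, exact two-sided sign-flip test over libraries, adjusted over 5 baits). From B26 the bins stood at 0.02 ± 0.41 with genes and -0.50 ± 0.84 without (difference 0.52, above 0 in 11 of 11 libraries, exact test, adjusted p = 0.00244). From B118 they stood at -0.13 ± 0.30 with genes and -0.65 ± 0.56 without (difference 0.52, 10 of 10 libraries, adjusted p = 0.00244, exact test). By reads the B118 difference was 0.37 and missed the threshold (adjusted p = 0.0708, exact test over 10 libraries). From B44 they stood at 0.09 ± 0.14 with genes and -0.15 ± 0.15 without (difference 0.24, 11 of 11 libraries, adjusted p = 0.00244, exact test). From B7 the difference was smaller, 0.37 ± 0.32 with genes and 0.24 ± 0.35 without (0.13, above 0 in 8 of 11 libraries, adjusted p = 0.0410, exact test). That call was lost by reads (0.14, adjusted p = 0.0781) and without any 1 of 8 of the 11 labelled libraries (lowest 0.10, adjusted p = 0.0820). Whether the difference itself varied between baits was not tested.

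Of the single bins, the one with the end of Wwc2, Dctd and part of Odz3 (chr8:49000001-49500000, 44.4% GC) was the highest of the 14 from B26 (0.33 ± 0.51, SD, n = 11) and from B87 (-0.31 ± 0.22, SD, n = 10). The next bin, inside Odz3 (chr8:49500001-50000000, 41.4% GC), was the highest from B7 (0.60 ± 0.32, above 0 in 11 of 11 libraries) and from B44 (0.35 ± 0.23, 11 of 11). From B118 the highest bin was at the other end, over Asb5, Spata4 and Wdr17 (chr8:55500001-56000000, 0.03 ± 0.29, SD, n = 10), followed by the bin of Aga and Neil3 (0.02 ± 0.12). The lowest bins lay in the gene-free stretch around B53. They were chr8:52500001-53000000 from B26 (-0.90 ± 1.38) and B87 (-1.62 ± 0.96), chr8:52000001-52500000 from B118 (-1.16 ± 0.96) and B7 (-0.08 ± 0.66), and chr8:53000001-53500000 from B44 (-0.39 ± 0.27, below 0 in 11 of 11 libraries). Second lowest from B7 was the right-hand bin over Asb5, Spata4 and Wdr17 (-0.07 ± 0.56).

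**Figure D3:**
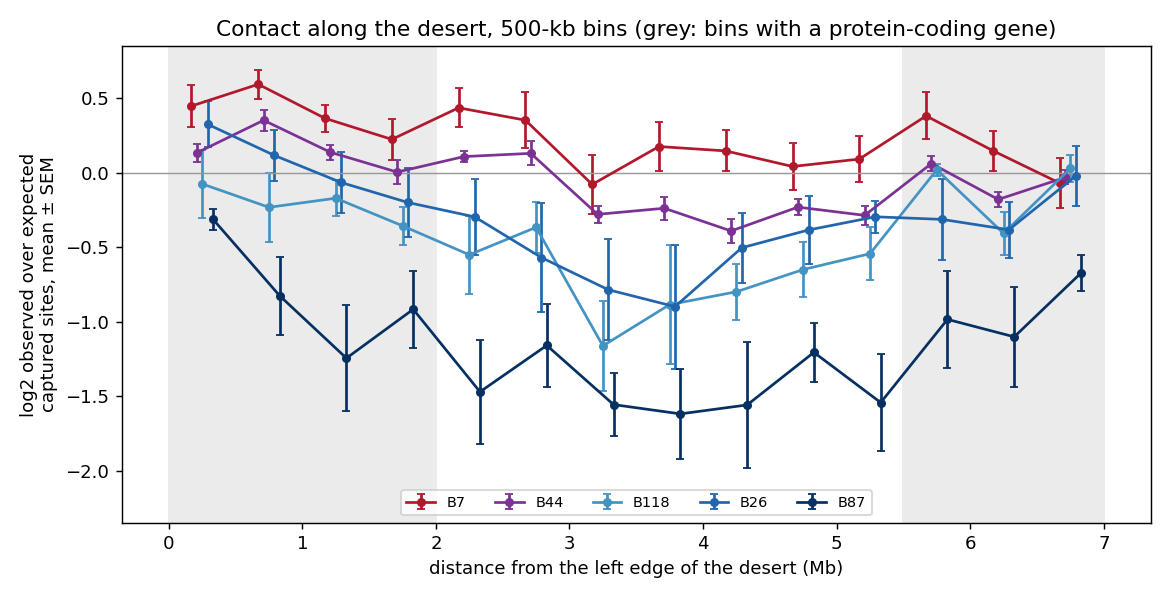
Mean ± SEM of log2 observed over expected captured sites in 14 bins of 500 kb along the desert, from 5 outside baits (n = 10 or 11 libraries each), against the distance from its left edge in Mb. Grey marks the 7 bins with a protein-coding gene. The lines of B26, B118 and B87 dip toward the gene-free centre and rise at the right edge, where B7 (-0.07), B26 and B118 (0.03) meet.

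Taken gene by gene, Odz3 (142 sites) had a mean log2 observed over expected of 0.50 ± 0.51 from B7 (above 0 in 9 of 11 libraries), 0.16 ± 0.20 from B44 (10 of 11), -0.27 ± 1.23 from B26 (6 of 11), -0.52 ± 0.83 from B118 (4 of 10) and -0.86 ± 0.55 from B87 (0 of 10). The gene-free stretch (1302 sites) had 0.26 ± 0.34 from B7, -0.12 ± 0.15 from B44, -0.51 ± 0.92 from B26, -0.60 ± 0.51 from B118 and -1.37 ± 0.75 from B87, so the baits kept their order there. Vegfc (43 sites) was below 0 in all 10 libraries of B87 (-0.95 ± 0.70) and of B118 (-0.65 ± 0.77), and near 0 from B7 (-0.09 ± 0.83), B44 (0.03 ± 0.20) and, with a wide spread, B26 (-0.24 ± 0.80). 4930555F03Rik (55 sites), beside the gene-free stretch, had 0.17 ± 0.38 from B7, -0.07 ± 0.33 from B44, 0.11 ± 0.37 from B26, -0.50 ± 0.53 from B118 and -0.65 ± 0.58 from B87. At the left edge the baits were ordered otherwise. The inner part of Wwc2 (30 sites) had 0.21 ± 0.27 from B87, 0.25 ± 0.50 from B118 and 0.38 ± 0.85 from B26, against -0.19 ± 0.85 from B7, and Dctd (14 sites) had 0.04 ± 0.50 from B87, 0.27 ± 0.83 from B118 and 0.43 ± 0.55 from B26, against -0.02 ± 0.97 from B7. Wdr17 (35 sites) stood at 0.30 ± 0.64 from B26, 0.28 ± 0.22 from B44, 0.03 ± 0.40 from B7, -0.20 ± 0.97 from B118 and -0.60 ± 0.80 from B87. Aga and Spata4 had 2 and 3 sites, Neil3 17 and Asb5 15, too few for their values to be compared between baits. No test was run on single genes.

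Bin by bin, B7 was compared with the mean of the GC-rich baits on captured sites, with the expected sites of each library as offset, in edgeR's quasi-likelihood test over 208 bins of the chromosome that all 5 outside baits measure beyond 2 Mb. Of these 208 bins 128 differed (61.5%, Benjamini-Hochberg adjusted p under 0.05), and 69 were higher with B7 (33.2%). In the desert 13 of 14 bins (92.9%) were higher with B7 and the remaining bin was above 0 too. The median log2 difference was 0.68 in the desert and 0.03 over all 208 bins. The largest stood at chr8:52500001-53000000, the bin that holds B53 (0.92, standard error 0.17, edgeR adjusted p = 5.74e-06), and at chr8:52000001-52500000 beside it (0.88, standard error 0.15, adjusted p = 2.82e-06). The smallest was chr8:55500001-56000000 at the right edge (0.14, standard error 0.10, adjusted p = 0.219), which alone did not pass, and the Wwc2, Dctd and Odz3 bin at the left edge came next (0.34, standard error 0.10, adjusted p = 0.00309). The difference between B7 and the GC-rich baits was thus largest in the gene-free centre and smallest at both edges. Here too libraries of all labels counted as replicates of their bait, so the test does not show whether a bin differed at each stage. Without 1 h replicate 2 and 2 h 11 of the 14 desert bins passed, and 79 bins passed over the chromosome, against 128 with all libraries.

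By label, the split between B7 and the GC-rich baits in captured sites was wide in most libraries of the first 4 h after mitosis and near 0 in G2 and G0. For the library labelled mitosis, where only B26 represents the GC-rich baits, B7 stood at 0.38 and B26 at 0.22. At 30 min B7 exceeded the GC-rich mean by 1.31 in replicate 1 and 1.57 in replicate 2, and at 1 h by 0.21 and 0.86. The difference was 0.82 at 2 h, 2.21 at 3 h and 1.71 at 4 h. It was -0.07 in G2, and -0.01 and 0.09 in the G0 libraries. By reads it was 0.55 in G2 and 0.24 and 0.38 in G0, against 0.18 for mitosis and 0.34 in the lowest library of the first hour, 1 h replicate 1. All 3 libraries of 2 to 4 h lay above both G0 libraries, while the 2 to 4 h and first-hour libraries overlapped.

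**Figure D4:**
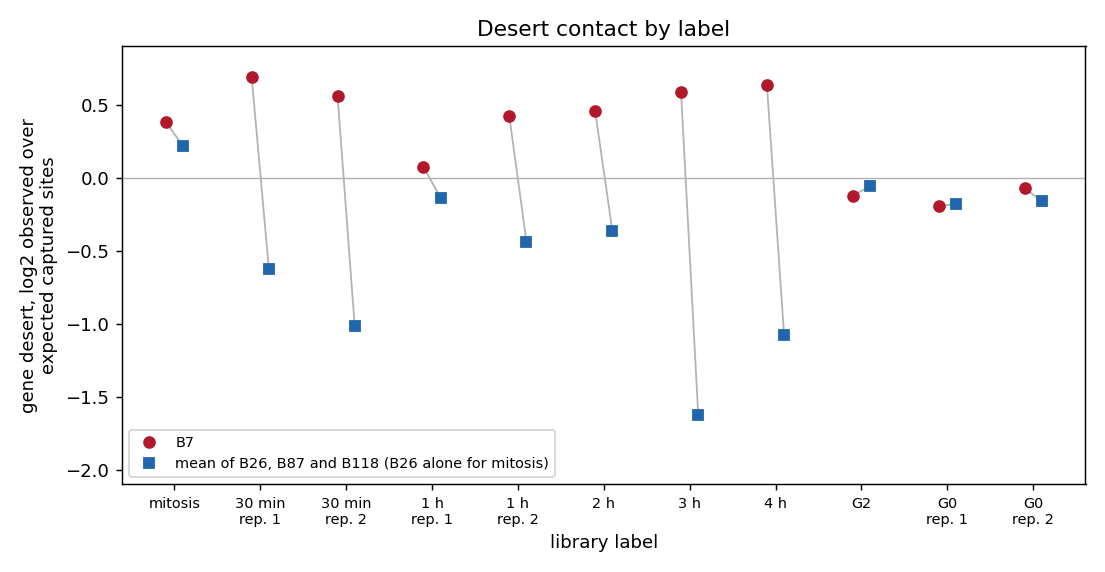
Log2 observed over expected captured sites of the gene desert from B7 (circles) and as the mean of B26, B87 and B118 (squares), for each library label from mitosis to G0. The pairs are farthest apart at 3 h (0.58 for B7 and -1.62 for the GC-rich mean) and lie close together in G2 and G0.

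The G0 libraries had a mean B7 minus GC-rich difference of 0.04 (n = 2), against 1.58 at 2 to 4 h (n = 3), a difference of -1.54 (exact two-sided permutation test, p = 0.2). By reads the means were 0.31 in G0 and 1.86 at 2 to 4 h (difference -1.56, exact p = 0.1), and 0.1 is the smallest p that 2 against 3 libraries can give. The 2 to 4 h libraries exceeded those of the first hour by 0.59 (means 1.58 with n = 3 and 0.99 with n = 4, exact permutation p = 0.286, smallest possible 0.0286). Without 1 h replicate 2 and 2 h, the means by captured sites were 0.04 in G0, 1.96 at 2 to 4 h and 1.03 in the first hour. Bait by bait, B7 had -0.13 in G0 against 0.56 at 2 to 4 h, whereas B26 had 0.28 in G0 against -0.78 at 2 to 4 h and B87 had -0.55 in G0 against -1.64 at 2 to 4 h. B118 stood at -0.24 in G0 and -0.65 at 2 to 4 h, and B44 at -0.11 in G0 and 0.04 at 2 to 4 h. With 2 and 3 libraries none of these can pass a threshold of 0.05. Library complexity moved with these labels. The B7 libraries of 3 h and 4 h rested on 82 and 47 captured desert sites and those of B87 on 16 and 13, against 228 and 239 for B7 and 158 and 664 for B87 in the G0 libraries. For the library of B87 labelled 4 h the counting interval (95%, exact Poisson, counting error only) ran from -2.81 to -1.12 around -1.86. The part of complexity in the label differences was not tested.

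Read counts per bin gave no desert bin that passed between stages. Between 2 to 4 h and the first hour, 0 of 1461 bins of 500 kb beyond 2 Mb over the 6 baits passed (0%, edgeR, adjusted p under 0.05), and between G0 and 2 to 4 h also 0 of 1461 (0%). At an unadjusted p under 0.05, the first comparison had 1 of 5 desert bins from B53 and 0 of 14 from each other bait. The second had 3 of 14 from B26, 2 of 5 from B53 and 2 of 14 from B118. B7 and B44 had 1 of 14 each and B87 had 0 of 14. The share of all 1461 bins under that cut-off is not given here, so these counts show nothing particular to the desert. In G0 relative to 2 to 4 h all 14 desert bins were above 0 from B26 (median log2 difference 2.24, against -0.20 over all B26 bins) and from B44 (0.68 against -0.46), and 12 of 14 from B87 (1.51 against 0.17). All 14 were below 0 from B7 (-1.05 against -0.69 over all B7 bins) and 12 of 14 from B118 (-0.59 against -0.28). These counts were not set against a distance expectation. By log2 observed over expected reads, B44 had -0.24 in both G0 libraries, against -0.07, 0.08 and 0.26 at 2, 3 and 4 h. B118 had -0.39 and -0.42 in G0, against -0.44, -1.15 and -0.53. The measures thus pointed in opposite directions for B44 and B118, and in the same direction for B7, B26 and B87. The smallest adjusted p of a desert bin was 0.0797. For G0 relative to 2 to 4 h DESeq2 called 354 of the 1461 bins and 6 desert bins. Without the library labelled 2 h edgeR called 233 of all bins and 6 desert bins in that comparison, and 30 of all bins and 5 desert bins at 2 to 4 h relative to the first hour, where DESeq2 called 0 of all bins.

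B53 read its own surroundings from inside the desert. Its libraries captured 836 to 1942 of the 2316 desert sites more than 50 kb away, 36.1% to 83.9% with a median of 75.0%, the lowest being 4 h (36.1%) and 3 h (39.4%). Of its chromosome 8 reads, capped per site, 25.0% to 61.2% lay in the desert (mean 34.2% ± 10.8, SD, n = 11). The share was 25.8% for mitosis, 37.2% and 36.7% at 30 min, 25.0% and 28.7% at 1 h, 30.5% at 2 h, 45.2% at 3 h, 61.2% at 4 h, 30.9% in G2 and 28.5% and 26.5% in G0. The 3 h and 4 h libraries were the highest, and they were also those with the fewest captured desert sites. At 2 to 4 h the mean was 45.7% (n = 3) against 31.9% in the first hour (n = 4, exact permutation p = 0.114), and in G0 it was 27.5% (n = 2) against 45.7% at 2 to 4 h (exact p = 0.2). Without 1 h replicate 2 and 2 h the means were 27.5% in G0, 53.2% at 2 to 4 h and 33.0% in the first hour. The exact permutation test of G0 against 2 to 4 h could give no p below 0.1. That of 2 to 4 h against the first hour could have reached 0.0286 and did not pass. In 100-kb bins within 2 Mb of each bait, edgeR called 0 of 228 bins (0%) between 2 to 4 h and the first hour and 22 of 228 (9.65%) between G0 and 2 to 4 h. None of the 38 near bins of B53 was among them. At an unadjusted p under 0.05 there were 3 and 4 of the 38, and the share of all 228 bins under that cut-off is not given here.

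**Figure D5:**
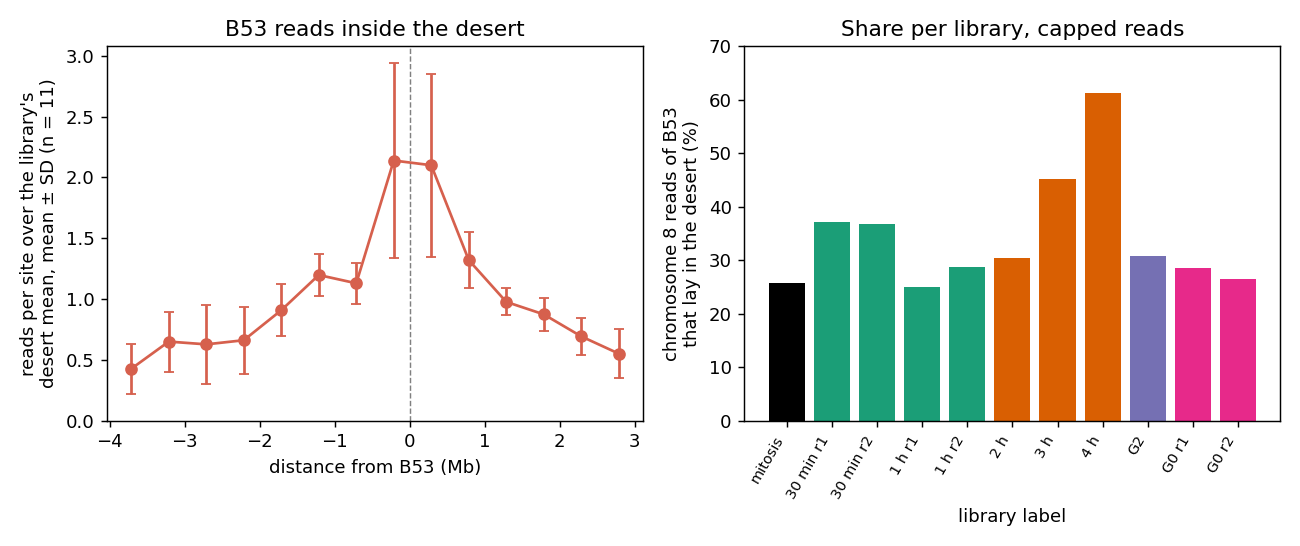
Left, B53 reads per HindIII site in 14 bins of 500 kb, divided by the library's mean over the desert (mean ± SD, 11 libraries), against the distance of the bin's centre from B53 in Mb. Right, the percentage of chromosome 8 reads of B53, capped per site, that lay in the desert in each library, which is highest for 4 h (61.2%) and 3 h (45.2%).

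B53 reads per site fell with distance on both sides, and the sides did not differ beyond the spread between libraries. Reads per site were 2.14 ± 0.80 times the desert mean in the bin that holds B53 (SD, n = 11), whose 135 counted sites lay left of it. They were 2.10 ± 0.75 in the bin to its right (169 sites). The next bins out had 1.13 ± 0.17 on the left and 1.32 ± 0.23 on the right. The outermost bins had 0.43 ± 0.21 (Wwc2, Dctd and Odz3, on the left) and 0.55 ± 0.20 (Asb5, Spata4 and Wdr17, on the right). Within 3 Mb, 66.5% of sites on the left and 65.2% on the right were captured on average, a mean log2 left over right of 0.01 ± 0.11 (SD, n = 11, above 0 in 8 libraries, exact sign-flip p = 0.795). By reads the mean was -0.02 ± 0.12 (exact p = 0.653, n = 11). The share of sites captured did not fall steadily. On the left it was 69.9% ± 5.8 in the bin that holds the bait, 77.1% ± 14.3 in the third bin out and 62.1% ± 29.4 at the edge. On the right it was 69.4% ± 4.2 beside the bait, 71.2% ± 18.7 in the bin of Aga and Neil3 and 58.3% ± 26.3 at the edge. Beyond 2 Mb, where a distance expectation could be fitted, B53 had a mean log2 observed over expected of 0.17 ± 0.22 in the desert (SD, n = 11, above 0 in 8). Its highest such bin was the Odz3 bin chr8:49500001-50000000 (0.34 ± 0.26, above 0 in 10 of 11), the same bin that was highest from B7 and B44 by captured sites. By reads the highest were the Vegfc bin from B53 (0.60, against 0.43 for the Odz3 bin), the Wwc2, Dctd and Odz3 bin from B7 (0.67, against 0.63) and the Odz3 bin from B44 (0.20).

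The share that B53 kept in the desert was set against the share that each other bait kept in a window of the same shape around itself, 3.96 Mb to the left and 3.04 Mb to the right, leaving out 50 kb on each side. By captured sites B53 kept 15.3% ± 9.8 of its chromosome 8 sites (SD, n = 11), against 27.4% ± 16.0 for B7 (n = 11), a difference of -12.1 points that missed the threshold (adjusted p = 0.217, permutation test over 5 baits) although B53 was lower in all 11 labels. By reads it kept 34.2% ± 10.8, against 62.4% ± 11.2 for B7 (difference -28.2 points, adjusted p = 0.00015, permutation test, lower in all 11 labels). The reads of the other baits were 43.0% ± 11.7 for B26, 43.1% ± 20.6 for B44, 35.9% ± 12.4 for B87 and 48.6% ± 15.3 for B118, and none of these 4 differed from B53 past the threshold (smallest adjusted p = 0.0535, for B118, permutation test). B7 lies nearer to an end of the chromosome, with fewer sites outside its window on that side: B53 had 3680 sites at 4 to 10 Mb and B7 had 1869. The part of this in their difference was not tested. The windows held 2316 sites at B53 and 2037 to 2261 at the other baits.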

How the data were processed

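The series gave 4C-seq libraries of C127 cells as raw read counts per HindIII site, deposited by the authors in 1 table. BWA 0.5.9 and the mm9 build are named in the submitters' processing notes, while any read filter is not given in the sources used here. Table positions equalled the mm9 HindIII sites. Gene positions are those of GENCODE for mm9, to which bait sequences from the labels were matched. Of 109 columns 39 (1.5 h and the baits of chromosomes 16 and 17) were not used here, and 0 lacked a sample. The 2 technical replicates labelled 2 h were summed. Depth and captured sites are given in the text. Reads carry no molecular identifiers, so intervals cover counting error only.

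Expected captured sites per 500-kb bin came from a Poisson regression on log distance (natural spline, 4 df, HindIII sites as offset), fitted per library beyond 2 Mb of the bait without the desert, with a pseudocount of 0.5 in ratios. Reads per site were capped at the library's 99th percentile of captured sites. Baits were compared by two-sided permutation over libraries (100000 resamples), bins by edgeR 4.0.16 (R 4.3.3, quasi-likelihood, Benjamini-Hochberg, threshold 0.05, bins with 10 captured sites or more, or filterByExpr and TMM for stages) with DESeq2 1.42.0 as an alternative. The scripts were tested on simulated data. Python 3.11.15, numpy 2.4.6, scipy 1.17.1, pandas 2.3.3, statsmodels 0.14.6 and patsy 1.0.2 were used.

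The interval, the baits compared and the lists were chosen with earlier results of these data known. Named were all protein-coding genes of the interval, the 2 highest and 2 lowest bins per outside bait (in part where several baits share them), desert bins past the threshold by size, and the 3 sites captured in most libraries. Alternatives were a lowess expectation, the desert in the fit, 2 reads or more, capped reads, a saturation correction, other bin sizes and distances, each library left out, a replicate block, and, added after seeing the data, fits without 3 h and 4 h and, for bins, gene-bearing bins and labels, without 1 h replicate 2 and 2 h (planned for the bait pairs). Deviations of same-labelled libraries correlated from -0.80 to 0.97 between baits. They were not above 0.1 in every pair, so the main test was unpaired and the paired values stand with the alternatives. The weakest correlation was -0.47, between B44 and B118, so same-labelled libraries were not independent between baits. The unpaired p-values do not allow for this. An average over baits by stage is not given, since baits moved in opposite directions.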

Additional observations from a re-analysis of the deposited data

How the results depend on the processing

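In each of 22 alternatives 6 to 8 of the 10 bait pairs differed, and the mean desert contact of each outside bait moved by less than its spread between libraries, within 0.24 to 0.44 for B7, -0.08 to 0.06 for B44, -0.52 to -0.21 for B118, -0.30 to -0.0036 for B26 and -1.45 to -0.87 for B87. Of 220 recomputed pair differences 210 kept their direction and their call. B44 minus B26 turned to -0.028 without 3 h and 4 h and passed beyond 4 Mb (0.35, adjusted p = 0.0454, permutation test), and B7 minus B44 missed the threshold beyond 4 Mb (0.21, adjusted p = 0.10). Without 3 h and 4 h, chosen after seeing the data, B7 minus B26 fell short of it (0.25, adjusted p = 0.150), as did B7 minus B44 (0.27, adjusted p = 0.0539). With libraries paired by label (replicate block) B7 minus B26 missed it too (0.51, adjusted p = 0.0854). The gene-bearing minus gene-free difference of B7 lost its call in 100-kb bins (0.060), by reads (0.14), without 1 h replicate 2 and 2 h (0.13) and without 3 h and 4 h (0.088), and ran from 0.10 to 0.16 with each library left out. That of B118 lost it by reads (0.37). B53 minus B7 in share of captured sites was -12.1 points, called with the replicate block (exact, adjusted p = 0.00488), and by reads it was -28.2 points and also called. B53 minus B26 was below 0 in every alternative (-8.76 to -1.06 points) and passed in none. The differences from the other baits passed in none either and changed sign, by reads for B87 (-1.66; by reads B44 stood at -8.87 and B118 at -14.4), for B118 with 200 kb left out (0.057) and with the replicate block (0.60), and with each library left out, where they ran from -0.55 to 0.69 for B44, -0.60 to 1.58 for B87 and -1.18 to 0.66 for B118. B53 left over right was -0.016 by reads and ran from -0.00057 to 0.032 with each library left out. B7 against the GC-rich baits gave 7 desert bins at 1 Mb, where 7 bins cover the desert, and 68 bins over the chromosome. For G0 relative to 2 to 4 h, desert bins beyond 2 Mb numbered 6 with DESeq2, 1 with captured sites, 4 with library totals and 0 to 6 with each library left out. Over all such bins (1461 in the main comparison) these settings called 354, 221, 60 and 0 to 233. Desert bins within 2 Mb numbered 1 with DESeq2 and 0 to 2 with each library left out. Over all bins within 2 Mb (228 in the main comparison) these settings called 42 and 0 to 43. For 2 to 4 h relative to the first hour desert bins beyond 2 Mb numbered 0 to 5 with each library left out, and all such bins 0 to 30. The replicate block changed no other call. The causes were not tested. Libraries of 3 h and 4 h limit the label comparisons, since their desert values rest on as few as 13 captured sites, and in the densest libraries up to 87.5% of desert sites beyond 2 Mb were captured, which leaves little room for a higher value.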

Other observations

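Between 50 and 200 kb of the bait, B53 captured 68.1% ± 5.0 of its 103 sites (SD, n = 11) and B7 73.0% ± 3.3 of 85 (n = 11), against 79.1% ± 3.5 for B44 (n = 11), 89.5% ± 3.2 for B118 (n = 10), 89.0% ± 2.8 for B26 (n = 11) and 90.3% ± 4.3 for B87 (n = 10). Farther out the order was different. Between 200 and 500 kb the values were 68.3% for B53 and 73.0% for B7, against 57.1% for B44, 93.4% for B118, 82.1% for B26 and 68.4% for B87, and between 500 kb and 1 Mb 65.6% for B53 and 70.8% for B7, against 69.4% for B44, 86.5% for B118, 62.4% for B26 and 69.7% for B87. Between 2 and 4 Mb they were 62.8% ± 26.1 for B53 and 57.1% ± 23.1 for B7, against 55.5% ± 21.5 for B44, 67.0% ± 27.4 for B118, 54.5% ± 24.8 for B26 and 47.4% ± 31.2 for B87. These shells hold different sites for each bait, and no test was run on them.

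Desert sites with a DpnII site between them and the next HindIII site on both sides, which gives 2 ends that can be circularized, were missed by the outside baits more often than others. Of 1793 such sites 18.0% were captured in none of the 53 libraries, against 11.5% of 504 sites with 1 such end and 5.00% of 40 sites with none. Their median number of libraries was nevertheless higher, 18, against 15 with 1 end and 8 with none. From B53, 19.5% of the sites with 2 such ends were captured in all 11 libraries, against 13.7% with 1 end and 10.0% with none. The sites of a class share libraries, and no test was run.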
